A study of Mus with 4 samples.

Results

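The genes that encode the proteins of the cytoplasmic ribosome were examined in a chromatin immunoprecipitation-sequencing (ChIP-Seq) experiment for TBX3, a transcriptional repressor of the T-box family. Members were the RefSeq GRCm38 protein-coding genes whose symbol is Rpl or Rps followed by a number, with an optional letter or l1 suffix, together with Rplp0, Rplp1, Rplp2 and Rpsa. Rps6k kinases, Gm models and pseudogenes were left out. This gave 83 of the 21887 protein-coding genes on the main chromosomes, of which 79 lie on autosomes and 4 on X. The rule used symbols only and no measured value.

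The study immunoprecipitated chromatin from primary mouse hepatocytes that carried the transposon pT2-SVNeo-EF1-eGFP-P2A-Tbx3-HA, in which an EF1 promoter drives GFP and HA-tagged TBX3, and searched for genes that TBX3 might bind. All libraries came from cells with this genotype, cultured and selected with G418, so the binding measured is that of an overexpressed, tagged protein, and no library of cells without the transgene was analysed here. An antibody against the HA tag was used for 2 TBX3 ChIP libraries, and 2 Input libraries held sonicated chromatin without immunoprecipitation. The age, sex and strain of the mice that gave the cells were not stated for this experiment, and a track of DNA scores has no RNA with which to check the cell type. The deposited data are a single MACS2 track in which each base has a score, the −log10 of a Poisson p-value that sets the ChIP reads over the base against the Input. The track has no value per library, and it is not stated which of the libraries entered it, so no score carries a replicate error and no comparison between genes was tested.

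Ribosomal protein genes are a textbook class of strongly and constitutively transcribed genes. Their products form the large subunit, which joins amino acids, and the small subunit, which reads the mRNA. Their promoters are short, open and typically start transcription within a pyrimidine-rich tract. In growing cells such as cultured hepatocytes they supply the proteins needed for new ribosomes. They were scored here as a class of highly active promoters.

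The promoter score of a gene is the maximum of the track inside 2 windows that reach 1 kb to each side of the ends of its annotated span. Both ends were used for every gene, since the gene table has no strand. A promoter score may therefore come from the end where transcription stops and not from a promoter. The pileup behind each score was inferred as the whole number of ChIP reads that gives it under a Poisson distribution. Over the 21 main chromosomes these pileups add up to 30094729 reads, and the expected level is never below a genome-wide level of 2.43 reads per base. At that level 7 reads give a score of 2.44, 8 reads 3.02, 9 reads 3.65 and 11 reads 5.01, so neighbouring scores often differ by a single read and many genes are tied. E2f7, a gene at which a region was called in this track, has a promoter score of 22.79.

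As a class, the ribosomal protein genes had the same median score as all protein-coding genes, with fewer members at the low end. Their median promoter score was 2.44 (95% binomial interval of the median 2.44 to 2.94, n = 83 genes), and the median of all protein-coding genes was also 2.44. The quartiles of the members were 1.90 and 3.02, beside 1.84 and 3.02 for all protein-coding genes. The members ranged from 0.64 at Rpl14 to 8.13 at Rpl36. Of the 83, 37 lay above the median of all protein-coding genes, 21 were tied with it and 25 lay below it, or 44.6%, 25.3% and 30.1%. Among all protein-coding genes the same shares were 32.8%, 17.7% and 49.5%.

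High scores were few. A score of at least 5 was reached by 4 of the 83 members, or 4.82% (exact 95% binomial interval 1.33 to 11.9%), beside 3.6% of all protein-coding genes. A score of at least 3 was reached by 31 members, or 37.3%, beside 29.1% of all protein-coding genes. No member reached 10, a score that 0.279% of all protein-coding genes had or passed. The first share differs little from the background. Its interval spans the background but is too wide to show that the shares are alike. The interval covers counting error only, and the genes are not replicates. No called region, defined as a run of bases at or above 5 at least 200 bp long with gaps of up to 30 bp joined, had its summit within 1 kb of an end of a member, while 125 were called in the genome and 0.311% of protein-coding genes had one at an end.

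**Figure D1:**
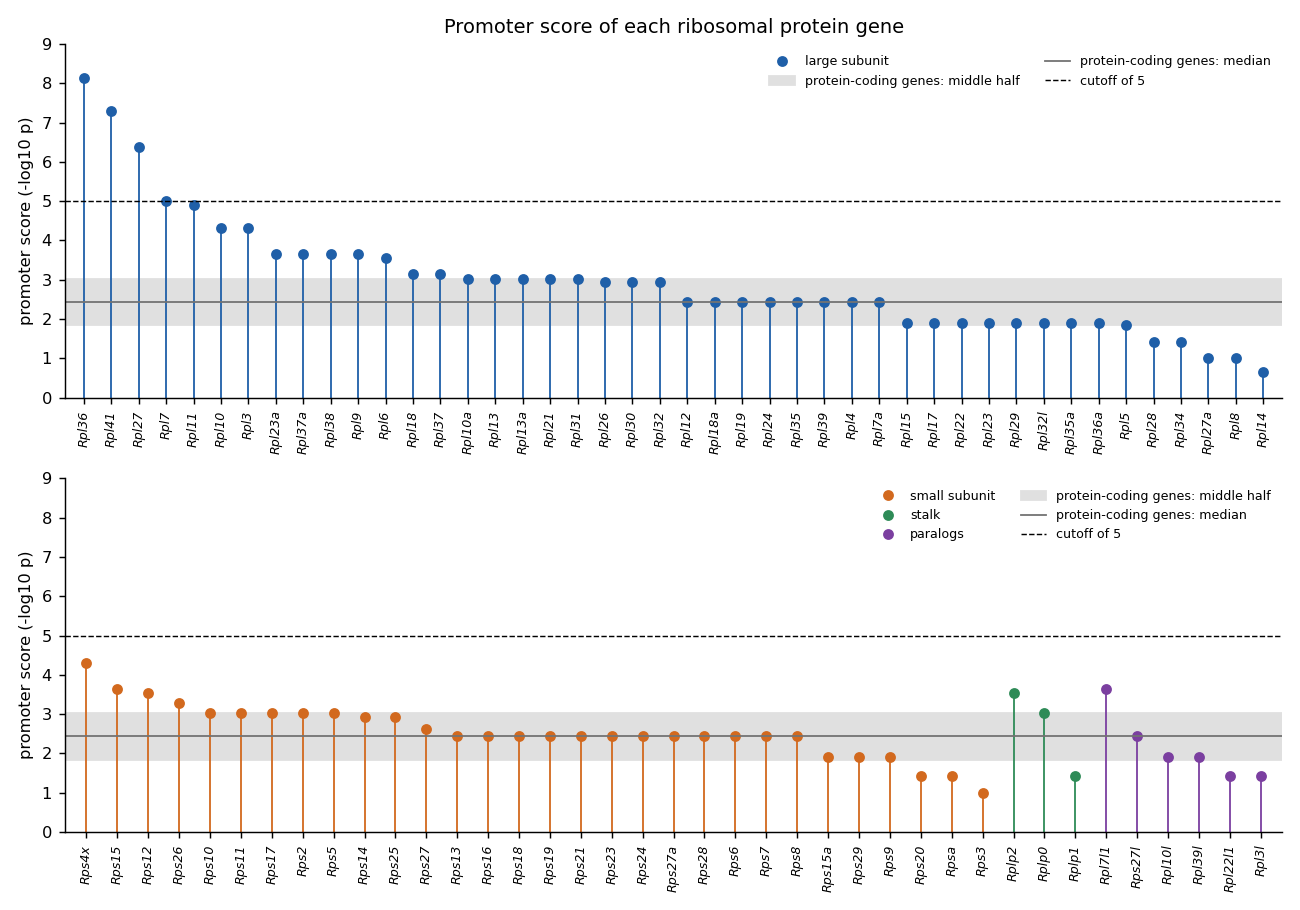
Promoter score (−log10 p) of each of the 83 ribosomal protein genes, ordered within the large subunit (top) and the small subunit, stalk and paralogs (bottom). The grey band and line give the quartiles and median of all protein-coding genes, and only Rpl36, Rpl41, Rpl27 and Rpl7 lie above the dashed cutoff of 5.

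The read counts were inferred from the scores, so they restate the same picture in reads and are not separate support. At its point of highest score, a member typically had 7 ChIP reads, and so did a protein-coding gene (medians). Members with 3 to 6 reads numbered 25 (30.1%, beside 42.3% of all protein-coding genes), those with 7 or 8 reads 37 (44.6% beside 37.7%), those with 9 or 10 reads 16 (19.3% beside 13.6%) and those with 11 to 15 reads 5 (6.02% beside 4.01%). The members had a smaller share of genes at 3 to 6 reads and larger shares in each of the ranges from 7 to 15 reads. No member had more than 15 reads, beside 0.667% of protein-coding genes, and none had fewer than 3, beside 1.72%. The protein-coding genes include 256 on Y, where no member lies and the median of the mean pileup was 0. How many of the genes with fewer than 3 reads are on Y was not counted.

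**Figure D2:**
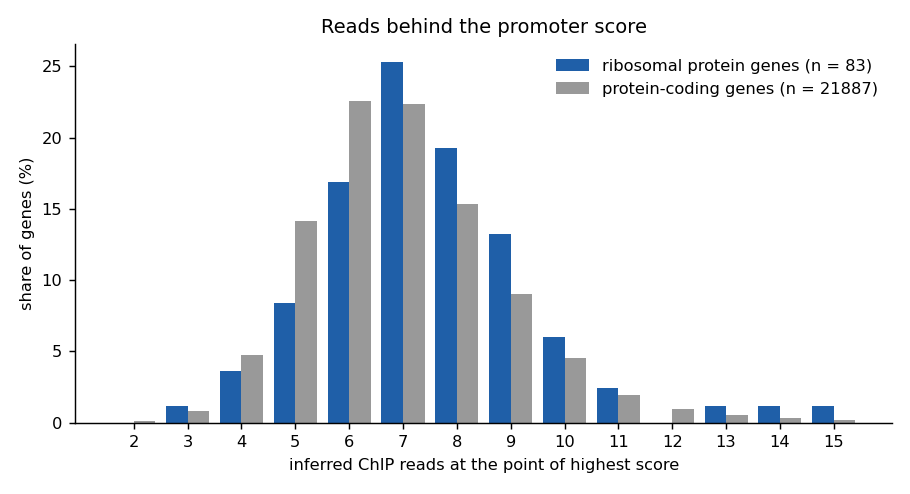
Share of genes (%) by the number of inferred ChIP reads at the point of highest score, for the 83 ribosomal protein genes and all 21887 protein-coding genes, shown from 2 to 15 reads. Both distributions peak at 6 or 7 reads, and 30.1% of the members have 3 to 6 reads, beside 42.3% of protein-coding genes.

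The 4 members above the cutoff all encode large subunit proteins. Rpl36 lies on chromosome 17 of GRCm38 from 56610094 to 56614246. Its highest score, 8.13, was at 56614529, 283 bp beyond its higher-coordinate end. There 15 reads stood against 2.43 expected (exact 95% Poisson interval of the reads 8.40 to 24.7). This and the similar intervals below treat the place of the count as fixed in advance. Each place was picked as the highest in its windows, so the intervals tend to lie too high. Of all protein-coding genes, 138, or 0.631%, scored as high. The Rpl36 point is inside the annotated span of Lonp1, which encodes a mitochondrial protease, and 232 bp from that gene's lower-coordinate end. The score is therefore the promoter score of both genes and cannot be given to either alone. The other end of Rpl36 had a highest score of 4.89, and the mean pileup over its windows was 2.95 reads per base, or 1.75 times the median of protein-coding genes on chromosome 17.

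Rpl41 encodes the smallest protein of the ribosome and lies on chromosome 10 from 128548110 to 128549168. Its score of 7.31 came from 14 reads (interval 7.65 to 23.5) against 2.43 expected at 128547134. That point is 976 bp outside the gene, near the edge of its window, and inside Zc3h10, a gene for a zinc finger protein whose span runs from 128543560 to 128548008. Zc3h10 takes the same promoter score from it. Within the 0.5 kb window this point is lost to Rpl41. Chromosome 10 also has the highest depth in the track, with a median promoter score of 2.98 over its protein-coding genes, and the mean pileup at Rpl41 was 1.00 times the median of that chromosome.

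Among these 4 members, Rpl27 was the one whose high point sat nearest to its own end. The gene lies on chromosome 11 from 101442245 to 101445596, and its score of 6.37 was at 101442221, 24 bp outside the lower-coordinate end, where 13 reads (interval 6.92 to 22.2) stood against 2.50 expected. The nearest end of another protein-coding gene, Ifi35, was 6191 bp away. At the other end of Rpl27 the highest score was 1.90. In the plot of reads around the gene the pileup forms a single mound across the gene end.

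Rpl7, on chromosome 1 from 16101295 to 16104433, passed the cutoff by the smallest margin. Its score of 5.01 was at 16104904, 471 bp outside the higher-coordinate end, from 11 reads (interval 5.49 to 19.7) against 2.43 expected, and a gene with 10 reads at that expected level would have stayed below 5 at 4.31. The point is 978 bp from Rdh10, a retinol dehydrogenase gene, which takes the same score. The highest of the members just below the cutoff was Rpl11 at 4.89.

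Unbroken runs of bases scoring 5 or more were 98 bp long at Rpl36, 95 bp at Rpl41, 47 bp at Rpl27 and 17 bp at Rpl7, all shorter than the 200 bp required of a region. The p-values of the 4 points, adjusted by Benjamini-Hochberg over every base of the 21 main chromosomes, were 0.000558 at Rpl36, 0.00263 at Rpl41, 0.0130 at Rpl27 and 0.0687 at Rpl7. An adjusted p of 0.05 corresponds to a score of 5.46, which 3 members (3.61%) reached, beside 2.26% of all protein-coding genes. These p-values come from 1 track and carry no replicate error. The sources used here do not state whether the reads were paired, and if both mates of each pair were counted these scores are too high. The expected level was divided by 2, and so was the pileup, with odd counts rounded down, which lowers their scores further. The 4 scores then became 4.39 at Rpl36, 4.39 at Rpl41, 3.49 at Rpl27 and 2.79 at Rpl7. No member reached 5, and 0.452% of protein-coding genes did.

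**Figure D3:**
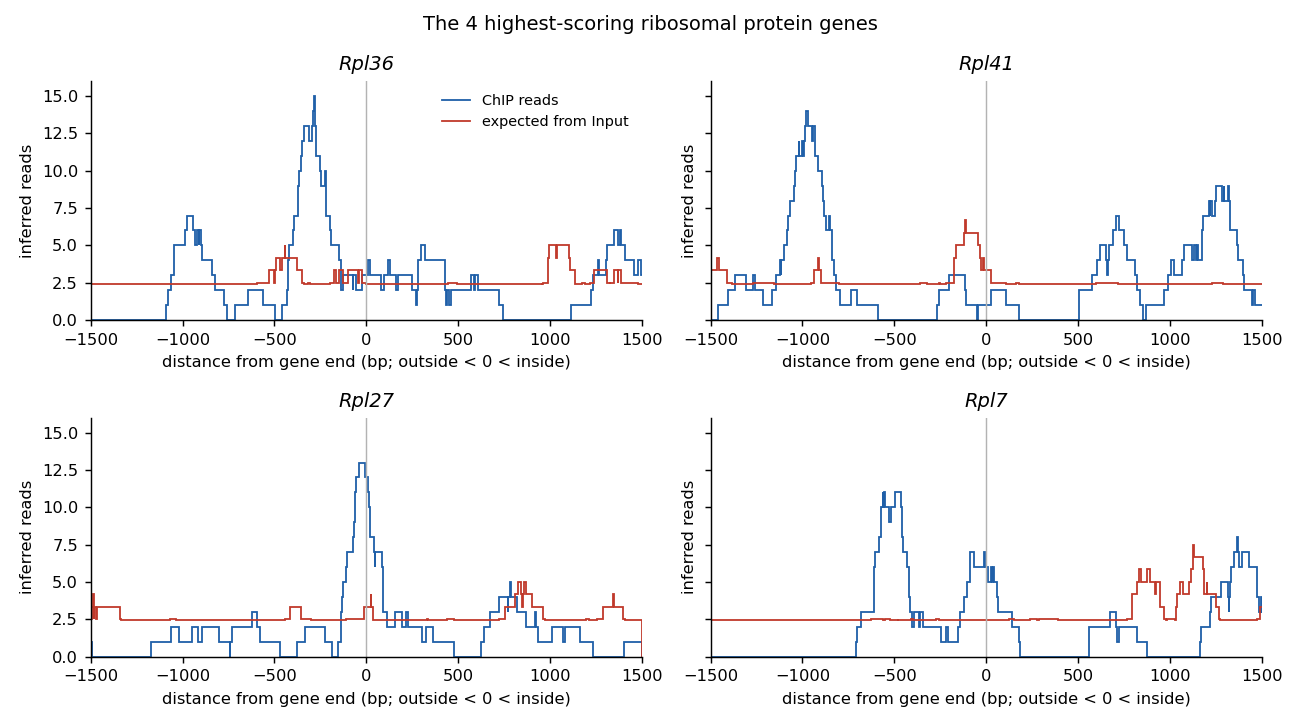
Inferred ChIP reads (blue) and reads expected from Input (red) per base against the distance in bp from the gene end nearest to the highest score, for Rpl36, Rpl41, Rpl27 and Rpl7, with negative distances outside the gene. The highest points stand at 15, 14, 13 and 11 reads, at the gene end for Rpl27 and away from it for the others.

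Under a looser setting, a cutoff of 3 and a minimum length of 100 bp, 7 regions had a summit within 1 kb of an end of 5 members, Rpl27, Rpl36, Rpl41, Rpl7 and Rps4x. This is 6.02% of the members, beside 5.79% of protein-coding genes that had such a region. This setting was chosen after the data were seen.

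The remaining 6 of the 10 highest members had 9 to 11 reads. Rpl11 encodes a protein of the 5S ribonucleoprotein particle that also binds MDM2. Its 4.89 lay 112 bp outside its lower-coordinate end, where 11 reads stood against 2.50 expected, and the highest score at its other end was 1.00. The nearest protein-coding gene end was 27593 bp from this point. Rpl11 is on chromosome 4, where the median promoter score of protein-coding genes was 1.42, the lowest among the chromosomes that hold members, and its mean pileup was 1.61 times the chromosome's median.

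Rpl10, Rpl3 and Rps4x were tied at 4.31 with 10 reads each. The Rpl3 point was inside the gene and 105 bp from Snord43, one of the small nucleolar RNA genes within it. The Rpl10 point was 797 bp outside that gene, and the Rps4x point was 998 bp outside its gene, 57 bp from the pseudogene Gm9103. Both Rpl10 and Rps4x are on X. Rpl23a and Rpl37a followed at 3.65 with 9 reads, a score that Rpl38, Rpl7l1, Rpl9 and Rps15 shared. The Rpl23a point was 146 bp outside its gene and the Rpl37a point 517 bp inside. These values are a step or 2 of a read above the third quartile of all protein-coding genes.

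The 4 lowest members were core genes of both subunits and not paralogs. Rpl14, a large subunit gene on chromosome 9, had 3 reads at its highest point, the most over any base of its windows, and a score of 0.64, and 98.2% of protein-coding genes scored as high. Rpl27a, Rpl8 and Rps3 had 4 reads at their highest points and a score of 1.00, and Rpl27a had up to 6 reads elsewhere, over bases with a higher expected level. Rps3 encodes a protein at the mRNA entry channel of the small subunit. Rpl22l1 was the first by symbol of 7 members tied at 1.42 with 5 reads, the others being Rpl28, Rpl34, Rpl3l, Rplp1, Rps20 and Rpsa. A score of this size is what 5 reads give against the genome-wide level, and whether a lower score is weaker binding cannot be told at this depth.

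By role, the 44 large subunit genes had a median score of 2.69 (range 0.64 to 8.13), with 19 at or above 3 and 4 at or above 5. The 30 small subunit genes had a median of 2.44 (range 1.00 to 4.31), with 9 at or above 3 and none at or above 5. Among all protein-coding genes 29.1% were at or above 3 and 3.6% at or above 5. Fau, a small subunit gene that the symbol rule leaves out, had 8.13 at a point outside its annotated span, as high as the highest large subunit gene. The mean pileups over the windows of the members had medians of 1.76 reads per base for the large subunit and 1.75 for the small subunit. Set against the median of their own chromosome, the order was the other way round. The score lay above it in 56.8% of the large and 63.3% of the small subunit genes, beside 40.9% of all protein-coding genes. The mean pileup lay above it in 65.9% and 76.7%, beside 49.4%. Of the large subunit genes at or above 5, Rpl36, Rpl41 and Rpl7 share their high point with another gene. The differences between the groups were not tested.

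The stalk, the flexible arm of the large subunit that recruits translation factors, is built from the products of Rplp0, Rplp1 and Rplp2. Rplp2 had a score of 3.55 (9 reads, 594 bp outside the gene), Rplp0 had 3.02 (8 reads, 77 bp inside an end) and Rplp1 had 1.42 (5 reads). Rpsa, whose product is a small subunit protein that is also known as a laminin receptor, had 1.42 from 5 reads. The stalk genes and Rpsa thus spanned most of the range between the lowest members and the third quartile.

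The 6 paralogs had a median score of 1.90. Of them, 4 lay below the class median of 2.44, 1 was tied with it and 1 lay above it. Their mean pileup was 1.07 times the median of their chromosome in the median, beside 1.11 for all members. Rpl7l1 had 3.65, at a point 678 bp outside the gene with an end of another gene in its windows. Rps27l, a p53-induced copy of Rps27, had 2.44. Rpl10l and Rpl39l, which are expressed mainly in testis, each had 1.90, and Rpl3l, expressed mainly in muscle, and Rpl22l1 each had 1.42. With 6 genes and steps of 1 read this is a description only. The other 2 paralogs listed are not members, since Rps4l is annotated as a transcribed pseudogene and the symbol Rps27rt falls outside the rule. Rpl32l, which is a member, was counted with the large subunit at 1.90.

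Ribosomal protein genes under other symbols were read beside the members. Fau, which encodes a fusion of a ubiquitin-like protein and a small subunit protein, had 8.13 from 15 reads on chromosome 19, where the median promoter score of protein-coding genes was 2.94. This equals the highest score of any member. The point, at 6057666, lies outside the annotated span of Fau, 6057947 to 6059524. Whether it is shared with a neighbouring gene was not examined. Rps3a1 and Rpl36al had 2.44 each, and Rack1, a scaffold on the small subunit, had 1.90.

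Averaged over the windows rather than taken at the highest point, the ChIP pileup was slightly higher at the members than over all protein-coding genes. The median over the 83 genes of the mean pileup was 1.76 reads per base, beside 1.63 for all protein-coding genes. Single members ranged from 0.928 at Rps20 to 3.64 at Rps12. The rise is not particular to the members. The same median was 1.78 for translation factor genes, 1.71 for mitochondrial ribosomal protein genes and 1.52 for proteasome subunit genes. The mean expected level was slightly lower, with medians of 2.64 and 2.71. Input reads raised the expected level above the genome-wide level over 23.2% of bases in the members' windows (median) and over 30.7% in those of all protein-coding genes. The ratio of mean pileup to mean expected level had a median of 0.660 for the members and 0.592 for all protein-coding genes. A ratio below 1 is built into these values, since the expected level cannot fall below the genome-wide level of 2.43. Bases with no ChIP read made up 32.2% of the members' windows and 35.8% of all protein-coding genes' windows (medians).

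Around the gene ends the members' pileup rose and fell, with high bins next to the end on the outside and again deeper inside the genes. Over the 250 bp outside an end the members had 1.98 ± 1.05 reads per base (SD over 83 genes, each the mean of its 2 ends), beside 1.69 ± 1.23 for all protein-coding genes. Over the first 250 bp inside it was 1.74 ± 0.961 beside 1.65 ± 1.21, and from 1000 to 2000 bp outside it was 1.64 ± 0.594 beside 1.72 ± 0.850. These differences were not tested. The expected level in the 250 bp outside was 2.61 ± 0.271 for the members and 2.76 ± 0.667 for all. Within the gene the members' profile fell to 1.38 reads per base at 300 to 350 bp and rose again to 2.08 at 600 to 650 bp, the highest bin of the profile. Just outside the end it reached 2.04 at 100 to 150 bp. Inside the gene it was also 2.06 at 900 to 950 bp and 2.01 at 1950 to 2000 bp. The bins next to the end thus do not stand out. The members are short, with a median length of 3175 bp beside 17169 bp for all protein-coding genes, so that stretches seen from the 2 ends overlap in part.

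**Figure D4:**
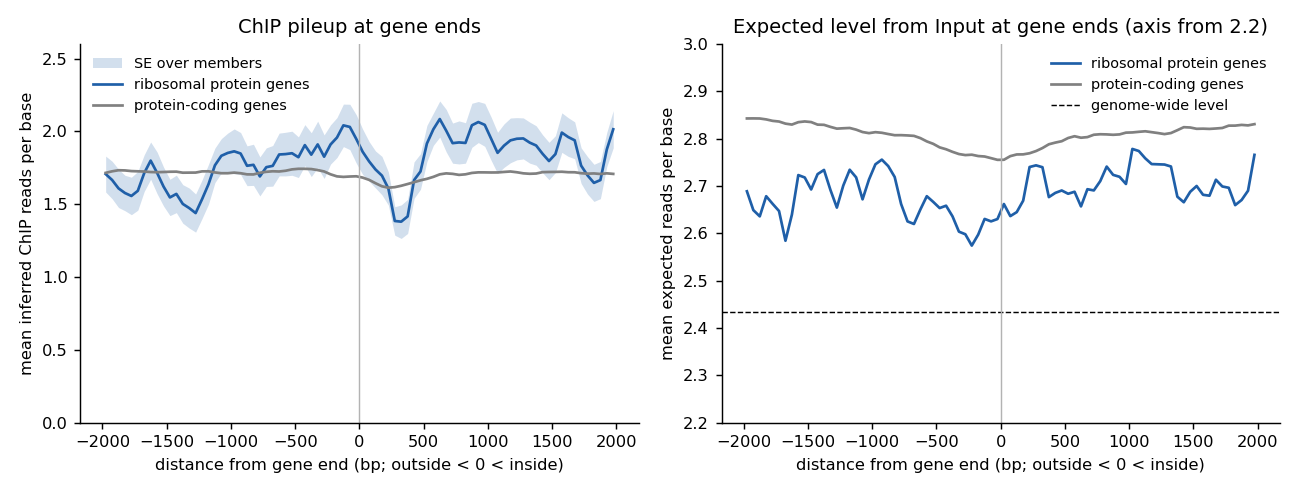
Mean inferred ChIP reads per base (left, with the SE over 83 genes as a band) and mean reads expected from Input (right, axis from 2.2) in bins of 50 bp against the distance from the gene end, for the ribosomal protein genes and all protein-coding genes. The members' pileup lies near 2 reads just outside the end, falls to 1.38 inside and rises again to 2.08. Their expected level stays below that of protein-coding genes.

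Depth differed between chromosomes and moved with these values. The median mean pileup of protein-coding genes ran from 1.06 reads per base on chromosome 4 to 2.41 on chromosome 10 among the 19 chromosomes that hold members, and no member lies on chromosome 19 or Y. The 5 members on chromosome 10 had pileups from 2.05 to 3.64, and Rps12 and Rps26 there had the highest pileups of all members, 3.64 and 3.32, with promoter scores of only 3.55 and 3.29. The 5 members on chromosome 4 had pileups from 0.928 to 1.85. Chromosome 7 held the most members, 14, with scores from 1.00 to 3.55.

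Set against the median of their own chromosome, 59 of the 83 members (71.1%) had a higher mean pileup, as did 49.4% of all protein-coding genes. The members' pileup was 1.11 times the median of their chromosome in the median. For the promoter score, 48 members (57.8%) lay above their chromosome's median, beside 40.9% of all protein-coding genes, with ties counted as not above. The expected level stood above the genome-wide level over fewer bases than the chromosome's median gene in 56 members (67.5%), beside 49.3%. These shares were looked at after the data were seen and were not tested, and genes on one chromosome are not replicates.

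**Figure D5:**
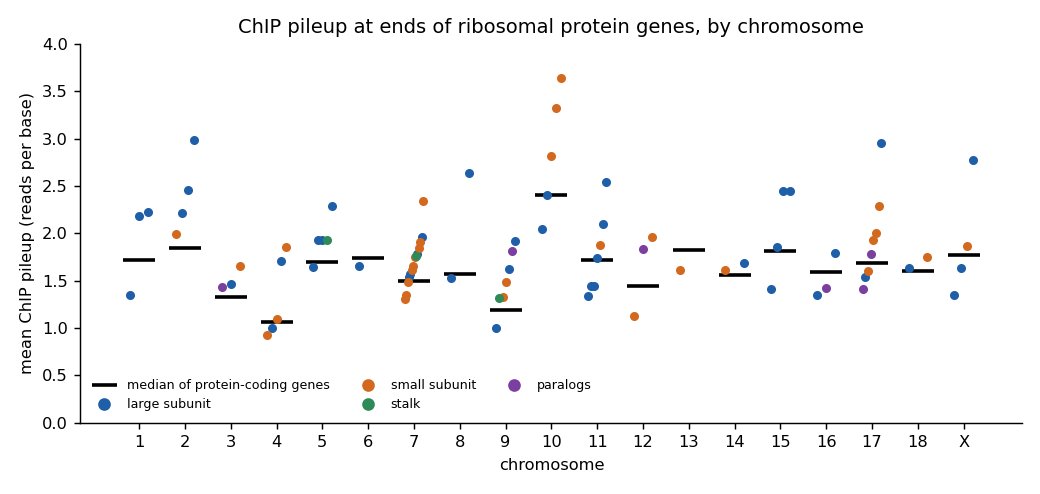
Mean ChIP pileup (reads per base) at the ends of each ribosomal protein gene by chromosome, coloured by group, with the median of all protein-coding genes on that chromosome as a black line. The medians run from 1.06 on chromosome 4 to 2.41 on chromosome 10, and 59 of the 83 members lie above the line of their chromosome.

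Some members had features that the rule did not use. Small nucleolar RNA genes, many of which lie in introns of ribosomal protein genes, were annotated inside 29 members, 58 in all. Members with such a gene had the same median score as those without, 2.44. The median of their mean pileup was 1.85 beside 1.73 reads per base. Of the 29, 12 (41.4%) reached 3 and none reached 5, and of the 54 others 19 (35.2%) reached 3 and 4 reached 5, beside 29.1% and 3.6% of all protein-coding genes. For 30 members the windows held an end of another protein-coding gene, and these had a median score of 2.78, beside 2.44 for the 53 without one, with 2 of 30 and 2 of 53 at or above 5. At Rpl36 and Rpl41 the high point is shared with the neighbour, and at Rpl7, counted among the 53, it is shared with Rdh10, whose end lies outside the windows of Rpl7. The highest point lay outside the gene for 44 members and inside for 39, within 300 bp of an end for 22, and the ends tied for 13 members. The same counts over all protein-coding genes were not set beside these.

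Other genes of protein synthesis and turnover gave a scale. The 78 mitochondrial ribosomal protein genes had a median promoter score of 2.44, and 5 of them (6.41%) reached 5. The 68 translation initiation and elongation factor genes had a median of 2.44, and 5 (7.35%) reached 5. The 40 proteasome subunit genes had a median of 2.14 and none reached 5. Among all protein-coding genes the median was 2.44 and 3.6% reached 5. The highest score in these lists was 15.53 among the mitochondrial ribosomal protein genes and 13.56 among the translation factors, both above the highest of the members. The mean pileup was above the chromosome's median in 55.1% of the mitochondrial ribosomal protein genes, 63.2% of the translation factors and 37.5% of the proteasome subunits, beside 71.1% of the cytoplasmic ribosomal protein genes and 49.4% of all protein-coding genes. By other measures the members stood less apart. A score of at least 3 was reached by 37.2% of the mitochondrial ribosomal protein genes, 35.3% of the translation factors and 20% of the proteasome subunits. The members had 37.3% and all protein-coding genes 29.1%. The median of the mean pileup was 1.78 reads per base for the translation factors, beside 1.76 for the members. The differences between these lists were not tested.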

How the data were processed

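ChIP-Seq libraries were mapped to mm10 by the authors with Bowtie 2, handled with SAMtools and scored with MACS2. Versions, the treatment of duplicates and whether and how libraries were combined are not given in the sources used here. The deposited track holds the −log10 p-value of the TBX3 ChIP pileup against Input per base, with no value per library (0 columns of other samples). Pileups and expected levels were inferred from the scores (150 bp reads, Input windows of 1000 and 10000 bp). Such levels could be assigned to 98.3% of bases scoring 5 or more. The steps were tested on simulated reads. Gene spans came from RefSeq GRCm38.p6. Strand and sequence were not used here, so motifs, promoter sequences and start-side scores were not analysed.

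The members and lists were chosen with earlier results of these data known. Named genes are the 10 highest and 5 lowest members (ties by symbol), the stalk genes, Rpsa, the paralogs and the genes under other symbols, of which 1 is not reported here. Others named were chosen after their values were seen. Own-chromosome, small nucleolar RNA and pileup comparisons were added after the data were seen. With 1 track, made from an unstated set of the libraries, no test between groups was possible. Depth per library is unknown. Computations used numpy 2.4.6 with numba 0.67.0 and scipy 1.17.1, tables pandas 2.3.3 and plots matplotlib 3.10.9, under Python 3.11.15.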

Additional observations from a re-analysis of the deposited data

How the results depend on the processing

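No paired analysis was possible because libraries are not separated in the data, and for the same reason no replicate could be left out. Alternatives that used only the gene start, or that compared the start side with the end side, were not run because the gene table has no strand. The share of members at or above the cutoff was 4.82%, beside 3.6% of all protein-coding genes. It was 37.3% with the cutoff lowered to 3 (29.1% of all protein-coding genes) and 0% when it was raised to 10 (0.279%). With each read pair counted once it was 0% (0.452%). Under the other 7 alternatives it was 3.61% to 6.02%, beside 2.26% to 5.19% of all protein-coding genes. These alternatives score mostly the same genes, so their likeness is not separate support. The median promoter score was 1.90 in a window of 0.5 kb and 1.45 with each read pair counted once, equal to the medians of all protein-coding genes under the same settings. It was 2.94 in a window of 2 kb, beside 2.62, and 2.44 without chromosomes 10 and 19, beside 2.37. As a mean score over the window it was 0.386, beside 0.333 for all protein-coding genes. With scores shifted to the median of their own chromosome, a choice made after the data were seen, the members' median was 2.94 and that of all protein-coding genes 2.44. The count of called regions at members was 0 under the other 7 settings, where 0.0731% to 1.11% of protein-coding genes had a region, and 7 at a cutoff of 3 with a minimum length of 100 bp. The median expected level was 2.64 as a mean over the window, against 2.43 at the point of highest score. Single scores rest on 3 to 15 reads, so steps of 1 read limit any ranking of members.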

Other observations

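Pseudogenes named after ribosomal protein genes, a list added after the data were seen, gave a further set of values. The 318 such pseudogenes had a median promoter score of 1.90, and 2 of them (0.629%) reached 5, beside a median of 2.37 and a share of 2.55% for all annotated genes. Their median length was 531 bp, so their windows cover fewer bases than those of the members. The median of their mean pileup was 1.62 reads per base, beside 1.65 for all annotated genes. Processed pseudogenes resemble the exons of their parent genes, and how reads with several matches were treated is not given in the sources used here, so values inside exons of the members are uncertain to that extent.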
